A study of Mus musculus with 11 samples.

Results

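Astrocytes are the star-shaped glial cells that supply neurons, clear transmitter and line blood vessels. Next to amyloid plaques, injury or inflammation they enter a reactive state, in which the intermediate filament proteins Gfap and Vim accumulate, the cell body enlarges, and secreted protease inhibitors, matrix proteins and cytokine receptors are made in larger amounts. Cytokines of the gp130 family, acting through receptors such as Osmr, JAK kinases and the transcription factor Stat3, are a known route into this state, and other routes lead to partly different gene programmes. The genes described here are 10 markers of the reactive state, a set given by name: Gfap, Vim, Serpina3n, Cd44, Osmr, Stat3, Cp, Ggta1, S1pr3 and Fbln5. The set and the lists set beside it were chosen with earlier results of these data known. The 10 genes are among the 53700 gene identifiers in the count tables, each was matched by its symbol, and all 10 passed the filter on low counts.

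Messenger RNA was measured by QuantSeq, a method that sequences the 3′ ends of mRNAs, in the cerebral cortex of 8-month-old female mice. The labels give 6 animals of the genotype 5xFAD; Abi3 WT and 5 animals of the genotype 5xFAD; Abi3 KO, all of strain C57BL/6, and number them as replicates with no litter or batch. Both groups carry the 5xFAD transgenes, which are driven by the neuronal Thy1 promoter, so every animal had an amyloid-depositing brain and there was no group without amyloid. Per the study's methods the 5xFAD line came from a B6SJL background, and the Abi3 null allele was made in C57BL/6N by targeting the gene for deletion. By the same methods, all mice in the comparison were heterozygous for a natural Trem2 variant of the SJL strain. Abi3 itself is a subunit of an actin-regulating complex and is found mainly in microglia.

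The 11 libraries held 3202310 to 5501958 reads in genes. Reads outside genes, per 100 reads in genes, were 65.9 ± 3.67 (SD, n = 6) in Abi3 WT and 54.0 ± 4.99 (SD, n = 5) in Abi3 KO (two-sided exact permutation test, p = 0.00649), and genes with a count numbered 18445 ± 345 (SD, n = 6) and 17785 ± 243 (SD, n = 5; exact permutation p = 0.0130). The part of these library measures in the results below was not tested beyond a fit with reads outside genes as a covariate. Abi3 had 7.24 to 37.7 normalised read counts in the Abi3 WT animals and 0 to 2.02 in the Abi3 KO animals, without overlap. Summed normalised counts of 14 astrocyte markers were 20536 to 25328 in Abi3 WT and 21313 to 23529.6 in Abi3 KO, and none of the 14 was at 0. A normalised read count is a raw count divided by the library's size factor from DESeq2. It is compared here between animals for 1 gene at a time.

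To determine whether loss of Abi3 altered astrocyte reactivity at the mRNA level in amyloid-bearing cortex, the 10 genes were read from a DESeq2 fit of all genes. None of the 10 passed the threshold of a Benjamini-Hochberg adjusted p of 0.05 in DESeq2, edgeR or limma, where 95 of 17626 genes (0.539%) passed in DESeq2, 44 in edgeR and 24 in limma. At an unadjusted p below 0.05, DESeq2 gave 0 of the 10, against 8.58% of all genes, and edgeR and limma gave 1 each, Gfap in both. DESeq2 gives no adjusted p to genes of low mean count. Only 6487 of the 17626 genes had one and could pass, among them Gfap, Vim and Stat3 of the 10. With that filter off the adjusted p of the 10 lay between 0.644 for Stat3 and 0.992 for Cp, and 57 of all genes passed. The log2 fold change of Abi3 KO over Abi3 WT was above 0 for 8 of the 10 genes, with a median of 0.21, and above 0 for 49.5% of all genes, with a median of -0.0033. Among the 11338 genes with a mean count at least that of the lowest of the 10, 52.1% were above 0 and the median was 0.0098. The values of the 2 genotypes overlapped for all 10 genes, and 1.04% of all genes had no overlap. In whole cortex, a change in the number of astrocytes and a change in RNA per astrocyte cannot be told apart.

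**Figure D1:**
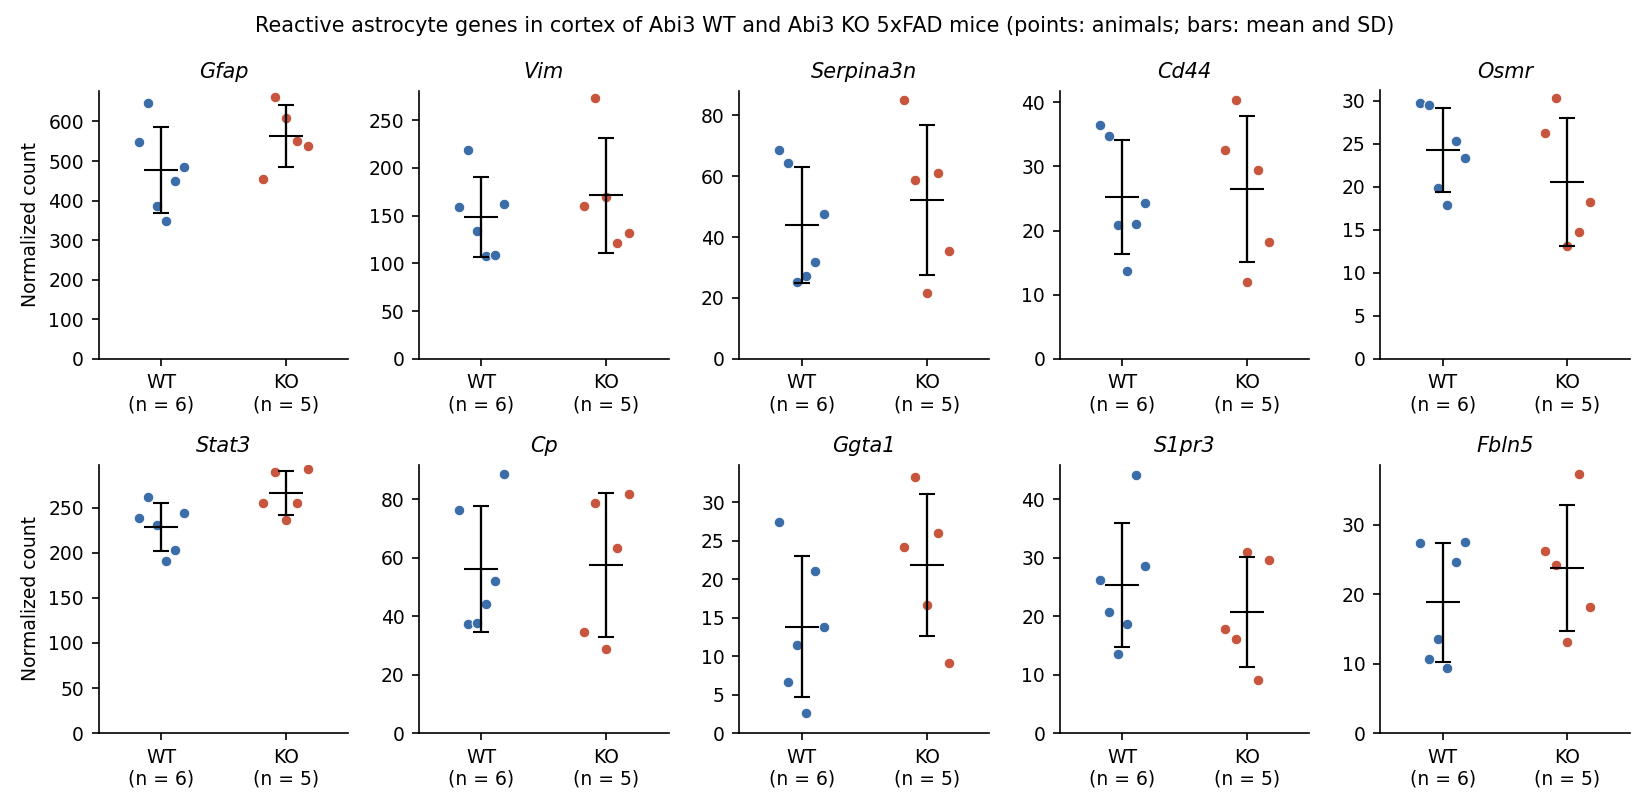
Normalised read counts (vertical axes, from 0) of the 10 genes in each Abi3 WT (blue) and Abi3 KO (red) animal, with the mean and SD per genotype as black bars. The genotypes overlap in every panel, also for Stat3, where 2 of 5 Abi3 KO animals lie above the highest Abi3 WT animal of 262.

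The filament genes were taken first. Gfap (ENSMUSG00000020932, chromosome 11, 102778159 to 102791738, minus strand, GRCm39) encodes the intermediate filament protein by which reactive astrocytes are most often stained. In the 6 Abi3 WT animals its normalised read count had a lowest value of 349, a median of 468 and a highest value of 647. In the Abi3 KO animals 1 to 5 it was 455, 663, 609, 551 and 538. Abi3 KO animals were above the Abi3 WT median in 4 of 5 cases, but only 1 of them was above the highest Abi3 WT animal. The means were 478 ± 109 (SD, n = 6) and 563 ± 78.1 (SD, n = 5), a 1.18-fold difference with a 95% interval of 0.980 to 1.42. The difference did not pass the test in DESeq2 (log2 fold change 0.24, SE 0.14, adjusted p = 0.496), nor in edgeR (adjusted p = 0.545) or limma (adjusted p = 0.574).

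Vim (ENSMUSG00000026728, chromosome 2, 13578738 to 13587639, plus strand) encodes vimentin, the filament partner of Gfap, which endothelial cells and fibroblasts also make. Its normalised read count in Abi3 WT was 107 at the lowest, 146 at the median and 219 at the highest. The Abi3 KO animals 1 to 5 had 160.5, 273, 169.5, 121 and 132. The highest value of all 11 was that of Abi3 KO animal 2, and the other 4 Abi3 KO animals lay inside the Abi3 WT range. DESeq2 gave a log2 fold change of 0.21 (SE 0.21, adjusted p = 0.748), which was -0.03 without Abi3 KO animal 2 and -0.26 with reads outside genes as a covariate. Of 4 filament partners, Synm and Plec, which link filaments to each other and to the cell cortex, had log2 fold changes of 0.10 and -0.07. Nes, the filament protein of neural progenitors and of some reactive astrocytes, had -0.38 (SE 0.29). Des, the muscle desmin found in vessel walls, was the only 1 of the 4 with an unadjusted DESeq2 p under 0.05, against 8.58% of all genes. Its mean was 1.72 normalised counts, with 0 to 1.70 in Abi3 WT and 0 to 6.29 in Abi3 KO.

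The sequence before the transcription start of both filament genes is shown because the gp130 route acts on Gfap through Stat3, and because Gfap and Vim varied together among animals, as described below. Each run spans 250 bases before to 10 bases after the RefSeq start (GRCm38.p6 table, located by exact match in GRCm39), at chr11:102788017-102788276 on the minus strand for Gfap and at chr2:13578872-13579131 on the plus strand for Vim. The windows of 250 bases before to 50 after the start were searched on both strands for a STAT-type motif (TTCNNNGAA), an AP-1-type motif (TGANTCA) and a TATA box (TATAAA), and matches are in capitals. Gfap holds a STAT-type match, TTCCAGGAA, across its start, from base -2 to base 7, and Vim a TATA box from base -32 to base -27.
Gfap: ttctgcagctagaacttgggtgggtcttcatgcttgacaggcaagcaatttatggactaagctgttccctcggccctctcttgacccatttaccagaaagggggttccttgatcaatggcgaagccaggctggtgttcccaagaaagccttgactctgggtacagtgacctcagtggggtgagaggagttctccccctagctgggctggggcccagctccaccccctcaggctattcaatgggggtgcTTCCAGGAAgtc
Vim: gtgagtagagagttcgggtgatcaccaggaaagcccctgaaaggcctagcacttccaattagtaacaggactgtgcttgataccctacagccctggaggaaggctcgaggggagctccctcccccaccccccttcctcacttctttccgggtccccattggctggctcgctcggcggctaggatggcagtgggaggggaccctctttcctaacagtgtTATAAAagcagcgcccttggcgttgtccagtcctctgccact
A STAT-type match was present in 8.30% of 32851 RefSeq windows, an AP-1-type match in 7.81% and the TATA box letters, on either strand, in 13.6%. Among the 12 windows of the 10 genes, Gfap alone held the STAT-type letters, Osmr and Cp the AP-1-type letters, and Vim, Ggta1 and Cp the TATA box letters. In Ggta1 these were on the other strand, from base -220 to base -215. In Cp a match on each strand of the TATA box overlapped the other. A match is a description of the letters and not of binding.

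Stat3 and Osmr belong to the gp130 route. Stat3 (ENSMUSG00000004040, chromosome 11, 100775924 to 100830450, minus strand) encodes the transcription factor that JAK kinases phosphorylate below gp130 receptors. Its normalised read count was 191 at the lowest, 235 at the median and 262 at the highest Abi3 WT animal. Abi3 KO animals 1 to 5 had 255, 289.9, 236, 255 and 292. All 5 Abi3 KO animals were above the Abi3 WT median and 2 were above the highest Abi3 WT animal. The means were 228 ± 26.8 (SD, n = 6) and 266 ± 24.4 (SD, n = 5), and DESeq2 gave a log2 fold change of 0.22 (SE 0.12, adjusted p = 0.443), the lowest p of the 10 genes. The corresponding fold was 1.17, with a 95% interval of 0.995 to 1.36. With reads outside genes as a covariate the log2 fold change of Stat3 was 0.11. Stat3 overlaps Stat5a on the other strand, and the authors' counting kept strands apart. Gfap and Stat3 lie 7.04 and 5.04 Mb from Abi3 on the same chromosome, so an effect of the Abi3 deletion on either gene cannot be told apart from that of the DNA inherited with the null allele.

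Osmr (ENSMUSG00000022146, chromosome 15, 6843053 to 6904450, minus strand) encodes the receptor chain that binds oncostatin M together with gp130. Its normalised read count in Abi3 WT was 17.9 at the lowest, 24.3 at the median and 29.7 at the highest. Abi3 KO animals 1 to 5 had 26.2, 30.3, 13.1, 14.7 and 18.2. Abi3 KO animals 3 and 4 lay below every Abi3 WT animal and animal 2 above every one. The log2 fold change was -0.23 (SE 0.34), and the 95% interval of the fold ran from 0.537 to 1.34. It was -0.42 without Abi3 KO animal 2 and -0.11 without Abi3 KO animal 3.

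Of 17 further genes of the gp130-JAK-STAT3 pathway, 12 were tested and none passed the threshold in either direction. DESeq2 gave an adjusted p to 5 of the 12, and the rest could not pass in it. The ligands Il6, Osm, Lif, Cntf and Clcf1 had too few reads to be tested, with at most 16 reads over all 11 animals. Among receptors, Il6st, which encodes gp130, had a log2 fold change of -0.06, and Lifr, the receptor chain for leukaemia inhibitory factor, had 0.26 (SE 0.13, DESeq2 adjusted p = 0.367). Lifr normalised counts were 171 ± 15.9 (SD, n = 6) in Abi3 WT and 205 ± 25.8 (SD, n = 5) in Abi3 KO. The kinase Jak1 had 0.15 and Jak2 had -0.27. Socs3, an inhibitor that Stat3 itself induces, had 14.3 ± 7.36 (SD, n = 6) and 5.24 ± 4.73 (SD, n = 5) normalised counts, a log2 fold change of -1.44 with an SE of 0.65. Lifr and Socs3 were the 2 of the 12 with an unadjusted DESeq2 p under 0.05, and with the low-count filter off the adjusted p of Socs3 was 0.545. Of the 12, 5 were above 0, where all genes gave 8.58% with an unadjusted p under 0.05 and 49.5% above 0, and their median was -0.06.

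Serpina3n and Cd44 encode a secreted and a surface protein. Serpina3n (ENSMUSG00000021091, chromosome 12, 104372810 to 104380597, plus strand) is a secreted inhibitor of serine proteases and one of the most strongly induced genes of reactive astrocytes. Its normalised read count was 25.1 at the lowest, 39.7 at the median and 68.5 at the highest Abi3 WT animal. Abi3 KO animals 1 to 5 had 84.9, 58.6, 21.5, 61.0 and 35.3. Abi3 KO animals held both the highest and the lowest value of all 11, a 3.95-fold range. The means were 44.1 ± 19.0 (SD, n = 6) and 52.3 ± 24.6 (SD, n = 5), and the log2 fold change was 0.25 (SE 0.34), which is a fold between 0.753 and 1.88 at 95%. It was 0.0056 without Abi3 KO animal 1 and 0.45 without Abi3 KO animal 3. None of the 10 other Serpina3 family genes could be tested, since 7 were at 0 in every animal and the others had at most 17 reads in all.

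Cd44 (ENSMUSG00000005087, chromosome 2, 102641486 to 102732010, minus strand) is the cell-surface receptor for hyaluronan, a matrix sugar, and is made by immune cells as well as astrocytes. Abi3 WT animals had a lowest value of 13.6, a median of 22.7 and a highest value of 36.5 normalised counts. Abi3 KO animals 1 to 5 had 32.5, 40.4, 11.9, 29.4 and 18.2, again the highest and the lowest of all 11. The log2 fold change was 0.08 (SE 0.36), and its direction turned when any 1 of Abi3 WT animal 4 or Abi3 KO animals 1 and 2 was left out.

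The animals were ordered in nearly the same way by both genes. Across all 11 animals, Pearson's r of log2(normalised count + 1) between Serpina3n and Cd44 was 0.897 (permutation p = 0.000330, adjusted p over 45 pairs = 0.0148) and Spearman's rho was 0.836 (permutation p = 0.00228, adjusted p = 0.0513). Without the 2 animals farthest from the Serpina3n median r was 0.895, and it stayed between 0.861 and 0.931 when each animal was left out. On deviations from the genotype means r was 0.906 (exact permutation p within genotype = 0.000799, adjusted p = 0.0359). The promoter windows of the pair are shown for comparison, at chr12:104372717-104372976 on the plus strand for Serpina3n and at chr2:102732001-102732260 on the minus strand for Cd44.
Serpina3n: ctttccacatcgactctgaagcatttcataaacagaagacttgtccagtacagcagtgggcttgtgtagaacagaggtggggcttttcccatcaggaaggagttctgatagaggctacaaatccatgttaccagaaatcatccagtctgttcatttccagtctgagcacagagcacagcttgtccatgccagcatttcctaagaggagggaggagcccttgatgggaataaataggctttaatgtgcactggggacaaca
Cd44: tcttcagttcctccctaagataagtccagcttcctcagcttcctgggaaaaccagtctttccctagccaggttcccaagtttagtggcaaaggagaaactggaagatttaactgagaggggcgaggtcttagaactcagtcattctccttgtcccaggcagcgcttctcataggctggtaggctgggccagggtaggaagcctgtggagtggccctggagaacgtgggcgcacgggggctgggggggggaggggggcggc
Neither window held any of the 3 motifs. The guanine and cytosine content was 46.9% in the Serpina3n run and 58.1% in the Cd44 run.

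**Figure D2:**
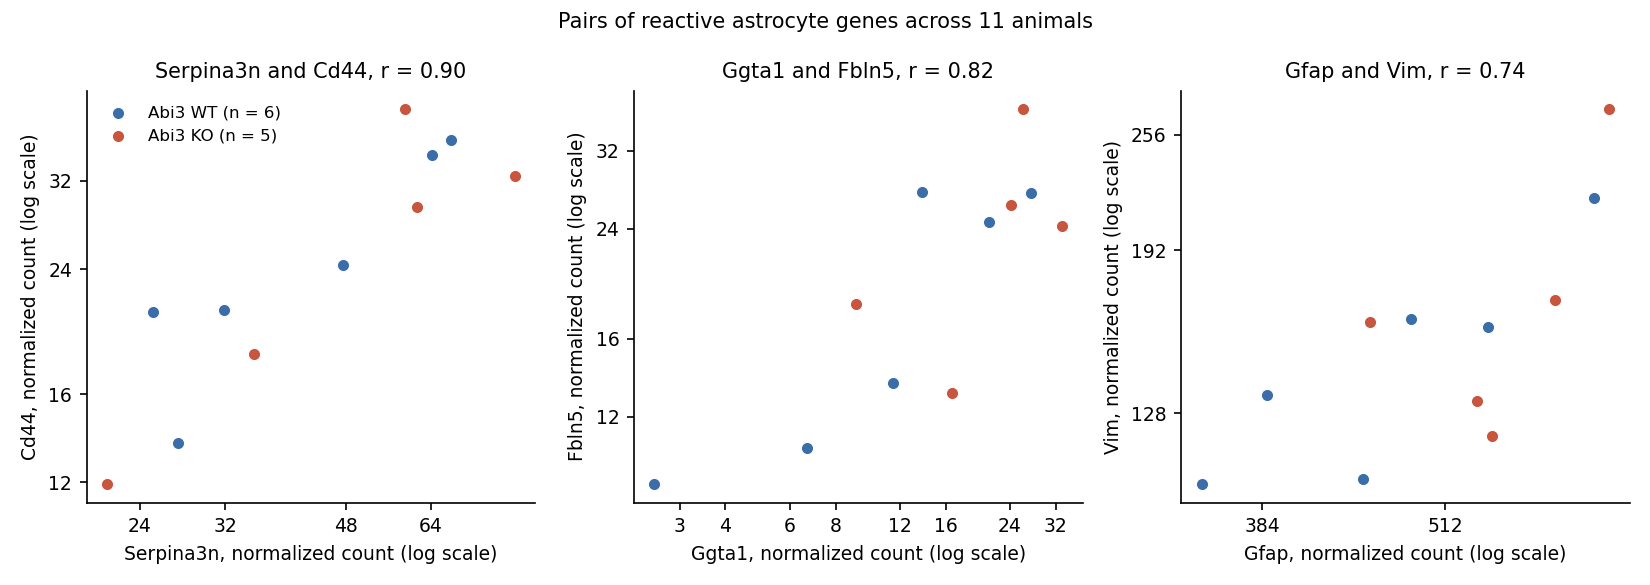
Normalised read counts of 3 pairs of genes on logarithmic axes, 1 point per animal, with Abi3 WT in blue (n = 6) and Abi3 KO in red (n = 5). Serpina3n and Cd44 (r = 0.90) lie close to 1 line, while Gfap and Vim (r = 0.74) scatter more widely.

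Osmr was compared with the same pair. Its r was 0.763 with Cd44 (permutation p = 0.00743, adjusted p over 45 pairs = 0.0918) and 0.621 with Serpina3n (permutation p = 0.0446, adjusted p = 0.287), neither past the threshold after adjustment. A measured fact stands beside this trio. The summed count of 6 fibroblast markers, which varied 2.84-fold between animals and ranged from 117 to 331 in Abi3 WT and 156 to 330.3 in Abi3 KO, had an r of 0.715 with Serpina3n, 0.792 with Cd44, 0.665 with Osmr and 0.778 with Vim. None of these passed after adjustment over 100 relations between the 10 genes and marker sums or library measures, where 10 had an unadjusted permutation p below 0.05 and the smallest adjusted p was 0.126. None of the 6 fibroblast markers was at 0 in the cortex, and their part in the shared variation was not tested.

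S1pr3 (ENSMUSG00000067586, chromosome 13, 51561702 to 51576833, plus strand) encodes a G protein-coupled receptor for the lipid sphingosine-1-phosphate. Its normalised read count in Abi3 WT was 13.6 at the lowest, 23.5 at the median and 44.2 at the highest, and Abi3 KO animals 1 to 5 had 17.8, 16.2, 31.0, 9.04 and 29.6. Of the Abi3 KO animals, number 4 alone lay outside the Abi3 WT range, below it. The log2 fold change was -0.30 (SE 0.39), and it was -0.059 without Abi3 WT animal 5 and -0.49 without Abi3 KO animal 3. S1pr3 was also the gene least like the others. Its r with the other 9 ran from -0.339 with Cd44 to 0.163 with Osmr. Of 13 partners in hyaluronan and sphingosine-1-phosphate metabolism, 12 were tested, and 9 had a log2 fold change above 0, against 49.5% of all genes. None had an unadjusted DESeq2 p under 0.05, against 8.58% of all genes. The receptor S1pr1, which had the highest mean count of the list, had a log2 fold change of 0.05 with an SE of 0.11.

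Cp, Ggta1 and Fbln5 complete the set. Cp (ENSMUSG00000003617, chromosome 3, 20011090 to 20063930, plus strand) encodes ceruloplasmin, a copper-carrying oxidase that helps iron leave astrocytes. Abi3 WT animals had 37.5 at the lowest, 48.2 at the median and 88.9 at the highest, and Abi3 KO animals 1 to 5 had 34.6, 78.8, 28.6, 63.2 and 81.9 normalised counts. The spread was wide, with 2 Abi3 KO animals below every Abi3 WT animal and the other 3 above the Abi3 WT mean. The log2 fold change was 0.04 (SE 0.30), and it turned, to as low as -0.12, when any 1 of Abi3 WT animals 2, 3 and 4 or Abi3 KO animals 2 and 5 was left out.

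Ggta1 (ENSMUSG00000035778, chromosome 2, 35290066 to 35354620, minus strand) encodes a Golgi enzyme that caps sugar chains with alpha-galactose. In Abi3 WT its normalised count was 2.56 at the lowest, 12.6 at the median and 27.4 at the highest, and Abi3 KO animals 1 to 5 had 24.1, 33.3, 16.7, 25.98 and 9.10. Abi3 WT animal 4 was the lowest of all 11, at 3 reads, which is the count taken as the smallest that can be told from none. Ggta1 had the largest log2 fold change of the 10, 0.68, and also the largest SE, 0.49, so that the fold of 1.602 had a 95% interval of 0.825 to 3.11. Without each animal in turn the log2 fold change lay between 0.46 and 0.98. A transcript of unknown status, Gm43761, overlaps Ggta1 on the same strand, and reads in a stretch shared by 2 annotated genes are given to neither.

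Fbln5 (ENSMUSG00000021186, chromosome 12, 101712556 to 101785429, minus strand) encodes fibulin-5, a matrix protein of elastic fibres that vascular cells also secrete. Its normalised count in Abi3 WT was 9.37 at the lowest, 19.1 at the median and 27.5 at the highest, and Abi3 KO animals 1 to 5 had 26.2, 24.2, 13.1, 37.3 and 18.2. A single Abi3 KO animal, number 4, exceeded the Abi3 WT range. The log2 fold change was 0.35 (SE 0.40), and the 95% interval of the fold ran from 0.745 to 2.18. It was 0.14 without Abi3 KO animal 4 and 1.099 with reads outside genes as a covariate. Ggta1 and Fbln5 varied together over the 11 animals, with r = 0.818 (permutation p = 0.00153, adjusted p over 45 pairs = 0.0344) and rho = 0.691 (permutation p = 0.0220, adjusted p = 0.200). Without Abi3 WT animals 4 and 2, the farthest from the Ggta1 median, r fell to 0.604, and it lay between 0.743 and 0.875 when each animal was left out. On deviations from the genotype means r was 0.797 (exact permutation p = 0.00646, adjusted p = 0.0981), not past the threshold after adjustment. The r with the summed count of 7 endothelial markers was 0.776 for Ggta1 and 0.779 for Fbln5, which did not pass after adjustment (adjusted permutation p = 0.126 for each), and the part of vascular cells in these values was not tested.

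**Figure D3:**
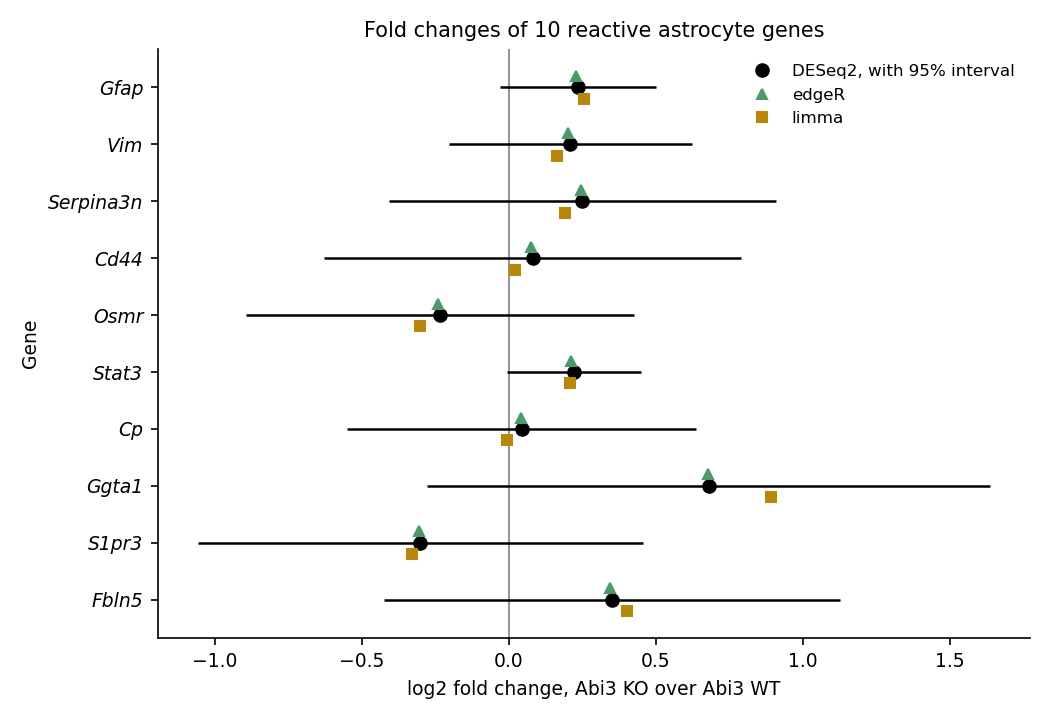
Log2 fold change of Abi3 KO over Abi3 WT (horizontal axis) for the 10 genes, with the DESeq2 estimate and its 95% interval in black and the edgeR and limma estimates as triangles and squares. All 10 intervals include 0, the narrowest being that of Stat3 (-0.01 to 0.45) and the widest that of Ggta1 (-0.28 to 1.64).

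The 10 genes were then compared with each other across animals. Of the 45 pairs, 38 had r above 0, with a median of 0.362, 7 had an unadjusted Pearson p below 0.05, and Serpina3n with Cd44 and Ggta1 with Fbln5 passed after adjustment over the 45. None passed by Spearman's rho. The 45 pairs share genes and libraries and are not independent of each other. Gfap was closest to Vim (r = 0.744, permutation p = 0.00816; rho = 0.736) and to Stat3 (r = 0.725, permutation p = 0.0113; rho = 0.691). Over the 9 pairs with Gfap the adjusted p was 0.0507 for both, just outside the threshold, and an exact test over all orders of the animals gave the same 0.0507. Without the 2 animals with the Gfap values farthest from the median, Abi3 WT animals 4 and 3, r was 0.725 with Vim and 0.539 with Stat3.

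The r of Gfap with Osmr, Cd44 and Serpina3n over all 11 animals was 0.183, 0.444 and 0.398, and on deviations from the genotype means 0.417, 0.487 and 0.369, none past the threshold. Abi3 KO animal 3 had a higher Gfap than 3 of the other 4 in its group beside the lowest Serpina3n, Cd44 and Osmr of all 11 animals. As background, r with Gfap over the 7779 genes with a mean count of at least 50 had a median of 0.0015 and a 5th to 95th percentile range of -0.53 to 0.55, and 1.23% of those genes lay as far from 0 as Vim. The 5 genes with the highest r were Slco2b1 (0.919), Rpl36a (0.872), Atp9a (0.863), Grn (0.861) and Rnf168 (0.861), chosen out of all 7779 and given as a description only.

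**Figure D4:**
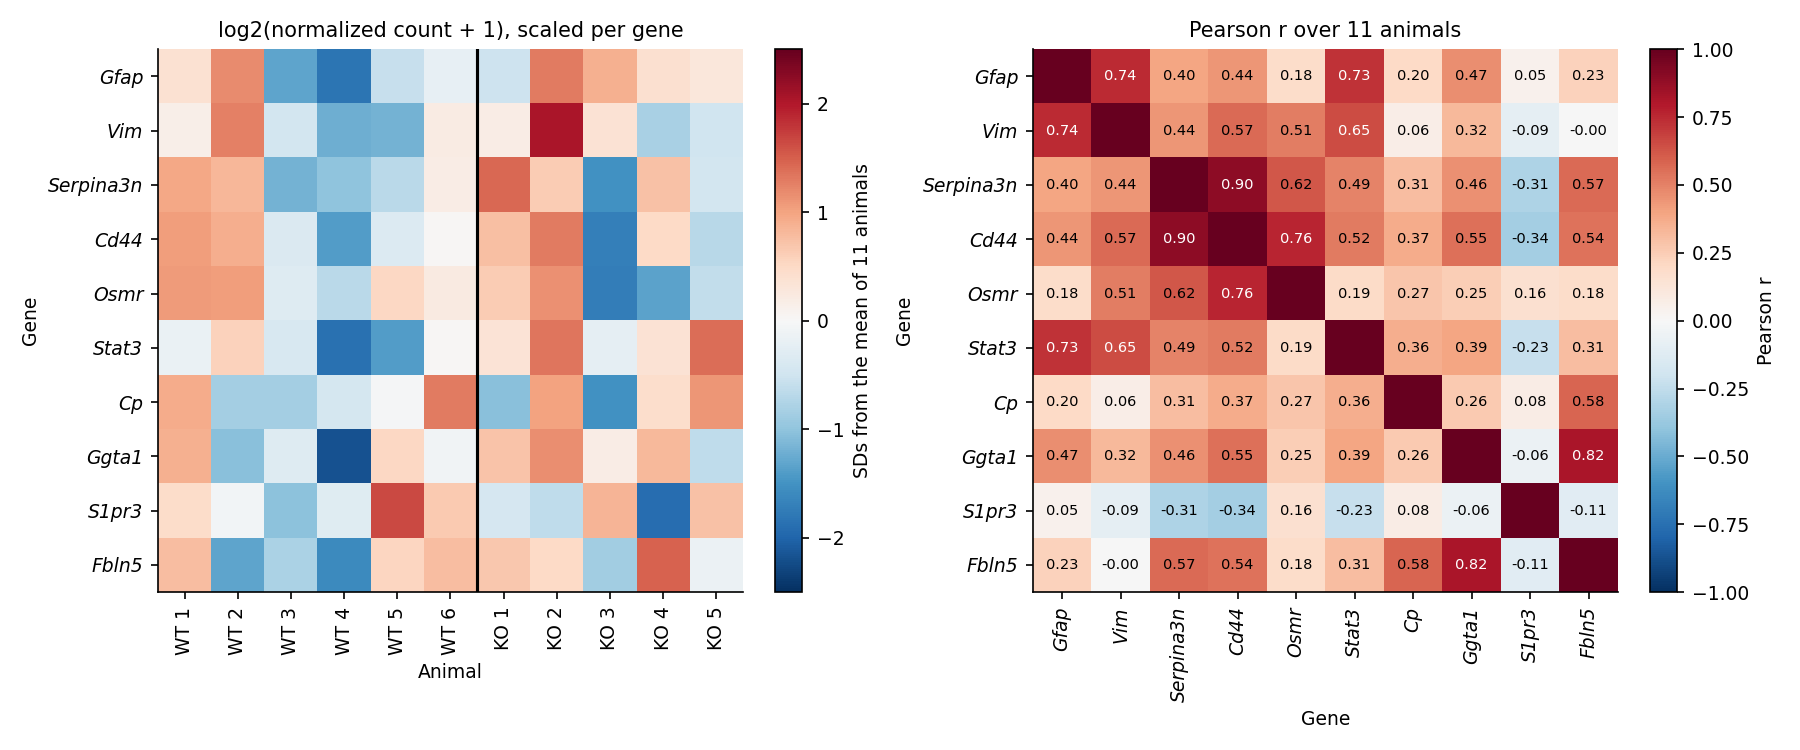
Left, log2(normalised count + 1) of the 10 genes in each animal, in SDs from the gene's mean over 11 animals. Right, Pearson r between the genes over the 11 animals. Abi3 KO animal 2 is high and Abi3 WT animal 4 low for most genes, and S1pr3 stands apart with r between -0.34 and 0.16.

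The animals were next ranked gene by gene. Abi3 KO animal 2 was among the 3 highest animals for 7 of the 10 genes, Abi3 WT animal 2 for 6 and Abi3 WT animal 1 for 5. Abi3 WT animal 4 was among the 3 lowest for 8 genes, Abi3 KO animal 3 for 5 and Abi3 WT animal 3 for 4. High and low animals came from both genotypes. The highest animal exceeded the lowest by 1.53-fold for Stat3, 1.90-fold for Gfap and 2.54-fold for Vim, and by 13.0-fold for Ggta1. The SD between animals of 1 genotype was 4.24 times that of counting alone for Gfap, 4.03 times for Vim and 3.13 times for Serpina3n, and 1.29 times for Osmr, which had 262 reads in all. The r of Gfap with the summed count of 9 microglial markers was 0.694 (permutation p = 0.0181, adjusted p over 100 relations = 0.301) and 0.609 on deviations from the genotype means, neither past the threshold. That sum was 1787 to 2418 in Abi3 WT and 1998 to 2707 in Abi3 KO. The r of Gfap with the summed astrocyte markers was 0.115.

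Other genes of the reactive state were grouped by the lists in use for it, and no gene of any list passed the threshold. DESeq2 gave an adjusted p to 0 of 4 tested pan-reactive, 1 of 9 inflammation-linked, 1 of 8 ischaemia-linked and 8 of 10 plaque-associated genes. The rest had too low a mean count and could not pass in DESeq2. The 6 further pan-reactive genes, which mark reactivity after many kinds of injury, had 4 members that could be tested, and all 4 had log2 fold changes below 0, with a median of -0.68, where 49.5% of all genes were above 0. These were the chaperone Hspb1 (-0.77, SE 0.39), the protease inhibitor Timp1 (-1.73 at a mean of 2.90 counts), Aspg (-0.58) and the chemokine Cxcl10 (-0.14). Steap4 was at 0 in every animal and Lcn2 had too few reads. Hspb1 had 12.8 to 50.0 normalised counts in Abi3 WT and 5.97 to 31.3 in Abi3 KO.

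The 9 further genes linked to reactivity after systemic inflammation were all tested and all 9 had log2 fold changes above 0, with a median of 0.47 and 2 unadjusted DESeq2 p below 0.05, against 49.5% above 0 and 8.58% below that p among all genes. Gbp2, an interferon-induced GTPase, had 11.01 ± 5.11 (SD, n = 6) and 23.6 ± 12.1 (SD, n = 5) normalised counts, a log2 fold change of 1.08 (SE 0.44, DESeq2 adjusted p = 0.420 with the low-count filter off). Amigo2, an adhesion protein, had 0.73 (SE 0.36, DESeq2 adjusted p = 0.594 with that filter off), and Fkbp5, a glucocorticoid-induced chaperone, had 0.47 (SE 0.24). H2-D1, a class I antigen-presenting protein with the highest mean count of the list, had 0.23 (SE 0.18). Immune and vascular cells also express Gbp2, H2-D1, H2-T23, Psmb8 and Srgn, and 8 of 9 microglial markers had log2 fold changes above 0, with a median of 0.18. C1qa, a complement component made by microglia, had the smallest unadjusted p of that list, with a log2 fold change of 0.47 (SE 0.15, DESeq2 adjusted p = 0.0783).

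Of 12 further genes linked to reactivity after ischaemia, 8 were tested, 4 above and 4 below 0, with a median of 0.02. S100a10, an annexin partner, had a log2 fold change of 0.51 (SE 0.23, DESeq2 adjusted p = 0.328), at 68.5 ± 22.4 (SD, n = 6) and 98.2 ± 23.2 (SD, n = 5) normalised counts. The inducible cyclooxygenase gene Ptgs2 had 0.12 (SE 0.34) and Tm4sf1 -0.27 (SE 0.28).

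The 10 genes reported in plaque-associated astrocytes divided evenly, 5 above and 5 below 0, with a median of -0.00074. The abundant secreted proteins Cst3, Apoe and Clu had log2 fold changes of 0.0034 (SE 0.09), -0.0049 (SE 0.09) and 0.04 (SE 0.07), while the lysosomal protease Ctsb, which microglia make as well, had 0.24 (SE 0.08, DESeq2 adjusted p = 0.0941). Ctsb had 1153 ± 41.3 (SD, n = 6) normalised counts in Abi3 WT and 1361 ± 169 (SD, n = 5) in Abi3 KO.

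**Figure D5:**
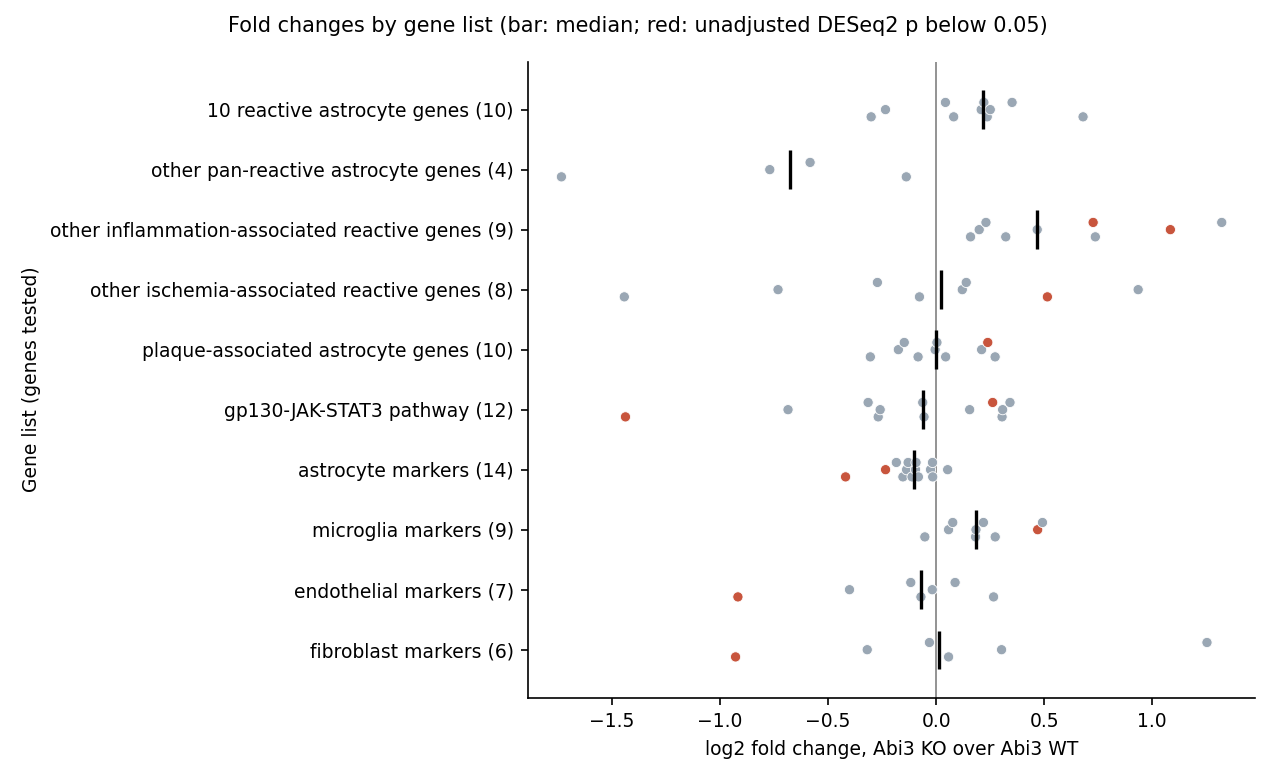
Log2 fold change of Abi3 KO over Abi3 WT (horizontal axis) of each tested gene in 10 lists, with the list median as a black bar and genes with an unadjusted DESeq2 p below 0.05 in red. The 9 further inflammation-linked genes all lie above 0 and the 4 further pan-reactive genes below it, the 10 reactive astrocyte genes hold no red point, and 13 of 14 general astrocyte markers lie below 0.

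General markers of astrocytes were set beside the 10 genes, and whether they change with reactivity was not tested. Of the 14, 13 had log2 fold changes below 0, with a median of -0.10, while 8 of the 10 reactive genes and 49.5% of all genes were above 0. Of the 14, 2 had an unadjusted DESeq2 p below 0.05, against 8.58% of all genes. The glutamate transporter genes Slc1a2 and Slc1a3 had -0.02 (SE 0.05) and -0.15 (SE 0.08), and the glutamine synthetase gene Glul -0.03 (SE 0.09). Fgfr3, a growth factor receptor, had -0.42 (SE 0.13, DESeq2 adjusted p = 0.0871) and Atp1b2, a sodium pump subunit, -0.23 (SE 0.11, DESeq2 adjusted p = 0.342). No astrocyte marker passed the threshold, and the difference between the 2 lists was not tested.

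Markers of the other cell types in cortex held no gene past the threshold either, and those of low mean count had no DESeq2 adjusted p. Those with an unadjusted DESeq2 p below 0.05, besides C1qa, were Cdh5, an endothelial junction protein (-0.92, SE 0.38), Pdgfrb, a receptor of pericytes (-0.63, SE 0.31), Col1a1, a fibroblast collagen (-0.93, SE 0.44), Cnp, a myelin enzyme (0.30, SE 0.14), and Snap25, a presynaptic protein (0.18, SE 0.08). Each of their lists held 1 such gene, and the 5 choroid plexus markers held 0, against 8.58% of all genes. The list medians were -0.07 for 7 endothelial, -0.28 for 7 mural cell, 0.01 for 6 fibroblast, 0.41 for 5 choroid plexus, 0.15 for 6 oligodendrocyte and 0.11 for 7 neuron markers.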

How the data were processed

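Cortical RNA of 11 mice was sequenced with QuantSeq. The authors trimmed adapters and poly(A) stretches, aligned reads to GRCm39 with STAR 2.7.3a and counted them per Ensembl gene and strand with HTSeq 0.9.1. The authors deposited raw counts, 1 table of genes per animal, with no normalization and no stated removal of PCR copies, so errors of counting are lower limits. Tallies of reads outside genes were kept apart from library totals. Of 53700 identifiers, 52610 matched a GENCODE annotation of the same build (98.0%).

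As in the study's methods, DESeq2 (version 1.42.0, R 4.3.3) was fitted with genotype as the only term to genes with at least 10 counts in total. Results were kept for genes whose mean normalized count reached 1.5, and the threshold was a Benjamini-Hochberg adjusted p of 0.05 over all genes. Independent filtering, aimed at 0.05, left genes with a mean under 70.4 without an adjusted p, 7 of the 10 genes among them, and those count as not past the threshold. Intervals are 95% Wald intervals. Depth was 3202310 to 5501958 reads in genes, where the limit of 3 counts equals 0.545 to 0.937 CPM and covers counting error only.

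Correlations used log2(normalized count + 1) over 11 animals with 100000 permutations, and exact tests within genotype. Promoter windows came from RefSeq. Alternatives were edgeR 4.0.16 (quasi-likelihood), limma 3.58.1 (voom with sample weights), TMM factors, other count filters, a replicate block, reads outside genes as a covariate, 1 surrogate variable (sva 3.50.0) and leaving out each animal. The order of the filters, the 45 pairs, and the blocked fit's animals without the block were added after seeing the data. The fits and the correlation test were tested on simulated data.

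The genes and lists were chosen with earlier results of these data known. Named from each list were genes with an unadjusted p under 0.05 and up to 3 with the highest mean counts, and a few more were named after their values were seen. The 5 genes most like Gfap were taken by Pearson's r. Replicate numbers come from the sample titles, and the animals of both genotypes differ.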

Additional observations from a re-analysis of the deposited data

How the results depend on the processing

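The count of the 10 reactive astrocyte genes past the threshold was 0 under all 22 alternatives of the fit, and 11 of 220 fold changes turned direction, in 3 genes. Not all 220 could turn on their own. The stricter count filter, independent filtering switched off and the other order of the filters kept the fold changes of the main fit. The blocked fit's animals without the block gave the same fit as leaving out Abi3 WT animal 6. Vim had a log2 fold change of -0.26 with reads outside genes as a covariate, and Cp had -0.0060 in limma. When each animal was left out in turn, the range was -0.026 to 0.36 for Vim, -0.12 to 0.26 for Cd44 and -0.12 to 0.22 for Cp. It was 0.0056 to 0.45 for Serpina3n, -0.49 to -0.059 for S1pr3, 0.14 to 0.50 for Fbln5, -0.42 to -0.11 for Osmr and 0.16 to 0.35 for Gfap. The covariate gave 0.79 for Serpina3n, -0.65 for Osmr, -0.75 for S1pr3, 1.099 for Fbln5 and 0.11 for Stat3, none past the threshold, and the smallest adjusted p of Gfap over all alternatives was 0.0795. Over all genes, against 95 past the threshold, edgeR gave 44, limma 24, independent filtering switched off 57 and reads outside genes as a covariate 3. Leaving out each animal gave 46 to 120. The cause was not tested. Deviations of same-numbered animals had a mean r of 0.018, with a highest value of 0.066, and those of other pairs -0.0048, and the numbers were not taken as a pairing. With the replicate block, which omits Abi3 WT animal 6, 33 genes passed, and 48 passed for the same animals without the block.

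Of 126 correlations with Gfap under 14 alternatives, 10 turned sign. Without the 2 animals farthest from the Gfap median, r was -0.029 for Serpina3n, -0.025 for Osmr, -0.064 for Cp, -0.14 for Ggta1, -0.33 for S1pr3 and -0.51 for Fbln5. Leaving out 1 animal gave r from -0.12 to 0.19 for S1pr3 and from -0.14 to 0.48 for Fbln5, and 0 to 3 correlations past the threshold: Vim and Stat3 without Abi3 KO animal 1 or 5, those and Cd44 without Abi3 KO animal 3, and Vim without Abi3 KO animal 4. The low genes had few reads, with 191 over all animals for Ggta1 and 233 for Fbln5, and the part of read number in these values was not tested.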
